A study of Mus musculus with 15 samples.

Results

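IL6Myc-1 and IL6Myc-2 were set against each other because, of the 10 pairs among 5 mouse myeloma cell lines, their libraries lay farthest apart. The mean Euclidean distance over log2(CPM + 1) levels was 97.7, with 97.1 to 98.7 over the 9 pairs of libraries, where CPM are counts scaled to a common library size. The next pair, IL6Myc-1 and IL6Myc-4, lay at 84.5, and the closest, IL6Myc-3 and IL6Myc-5, at 61.6. The pair was thus chosen on the gene levels described here, so the counts and levels that follow are a description of these libraries and carry no test.

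The pair takes 6 of the 15 libraries of the study, 3 technical replicates of total RNA from each line. Both lines, like the other 3, were established from mice of the IL6Myc genotype, an immunocompetent model of aggressive multiple myeloma. No normal plasma cell, treatment or other genotype was in the panel, and the labels do not say which animal gave which line or spell out the alleles behind the genotype. Each line is a single biological unit, so the standard deviations (SD, n = 3 libraries per line) and standard errors (SE) below measure technical spread only.

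Multiple myeloma is a cancer of plasma cells, the antibody-secreting end stage of the B lineage. Plasma cells devote much of their transcription to a single immunoglobulin heavy and light chain, and enlarge the endoplasmic reticulum to fold and export it. Interleukin 6, which signals through JAK kinases and STAT3, is a classical growth factor for these cells, and MYC is a frequent driver of the disease. NF-kB signalling, whose alternative arm runs through the kinase NIK, is another route by which human myeloma cells are known to survive.

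The IL6Myc-1 libraries held 41165599, 25205985 and 20004713 estimated counts, against 24367971, 23217052 and 19092612 in IL6Myc-2. The scaling factors of the TMM method, which fits library sizes to the bulk of the genes, were 1.04 to 1.05 in IL6Myc-1 and 0.848 to 0.860 in IL6Myc-2. IL6Myc-1 replicate 1, the deepest library, also had the lowest share of 18S ribosomal RNA of the 6, with 0.188%, against 0.286% and 0.352% in its replicates and 0.530% to 0.553% in IL6Myc-2. The levels of Lars2, the mitochondrial leucyl-tRNA synthetase gene, were also lowest in that library and lower in IL6Myc-1, with 396, 1226 and 1340.2 CPM in the IL6Myc-1 libraries, against 2121, 2086 and 2233 CPM in the IL6Myc-2 libraries. Lars2 was called lower in IL6Myc-1 (log2 difference -1.12 ± 0.30 SE), but not without IL6Myc-1 replicate 1, when the log2 difference was -0.74. Some widely used genes were listed with almost no counts in both lines, Jak1 with 4 counts in IL6Myc-1 and 29 in IL6Myc-2, so a level near 0 in this table does not show that a transcript was missing.

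Of 11773 genes tested, 790 were called higher and 1448 lower in IL6Myc-1, 2238 in all (19% of the genes, 6.71% higher and 12.3% lower). These shares are the scale for the counts within lists and chromosomes below. Here and below, called means a difference of at least 1 log2 unit (2-fold) that also had an adjusted p under 0.05 by the quasi-likelihood test of edgeR. At any size, 8347 genes (70.9%) passed the adjusted p, and the median log2 difference of all genes was 0.01. The split between directions depended on the scaling. On total counts without the TMM factors, an alternative added after the factors were seen, 1420 genes were called higher and 1111 lower, 56.1% higher against 35.3%, and the median of all genes lay at 0.30. Calls that this scaling loses are named beside the genes below.

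**Figure D1:**
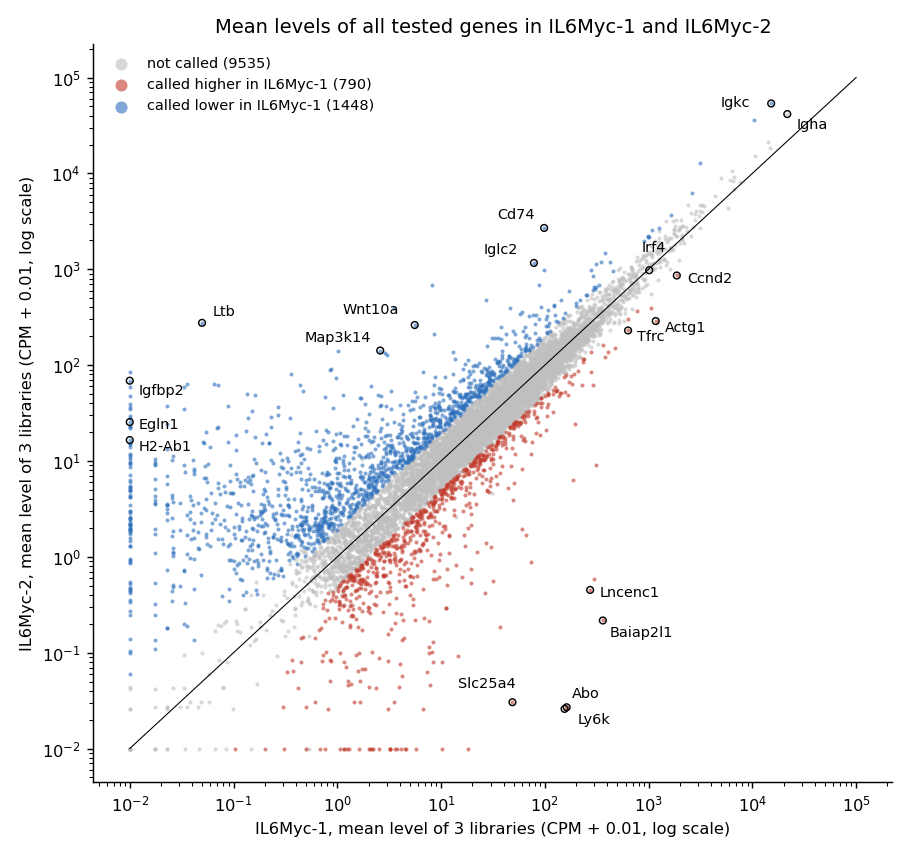
Mean level of each of the 11773 tested genes over the 3 libraries of IL6Myc-1 (horizontal axis) and of IL6Myc-2 (vertical axis), both as CPM plus 0.01 on log scales, with 790 genes called higher in IL6Myc-1 in red and 1448 called lower in blue. The line marks equal levels, and Ltb, Egln1 and H2-Ab1 lie at the left edge while Abo, Ly6k and Slc25a4 lie at the bottom.

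Both lines carried the transcripts of plasma cells. Of the 10 plasma cell markers, all were above 1 CPM in both lines, and 1 was called higher and 2 lower in IL6Myc-1. Irf4, a transcription factor that plasma cells depend on, was at 1013 ± 34.5 CPM in IL6Myc-1, against 977 ± 8.33 CPM in IL6Myc-2. Prdm1, which encodes the repressor BLIMP-1 that ends the B cell programme, was at 175 ± 2.16 CPM in IL6Myc-1, against 167 ± 5.49 CPM in IL6Myc-2, and Xbp1, the transcription factor of the secretory programme, at 1681 ± 41.9 CPM in IL6Myc-1, against 1573 ± 33.5 CPM in IL6Myc-2. Pou2af1, a coactivator of immunoglobulin promoters, and Sdc1, the gene of the plasma cell surface proteoglycan CD138, were not called either (log2 differences -0.17 and 0.32). Myc was at 1319 ± 63.5 CPM in IL6Myc-1, against 1528 ± 60.1 CPM in IL6Myc-2, so the oncogene in the name of the model was also short of a call (log2 difference -0.21 ± 0.06 SE), with the opposite sign on total counts.

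Among 14 tested transcription factor genes of plasma and B cells, 1 was called (7.14%, against 19% of all genes). Ikzf3, which encodes Aiolos, a zinc finger factor that immunomodulatory drugs degrade in human myeloma cells, had 2.59, 2.41 and 2.93 CPM in the IL6Myc-1 libraries, against 42.7, 54.1 and 47.6 CPM in the IL6Myc-2 libraries. Every IL6Myc-2 library was above every IL6Myc-1 library (log2 difference -4.19 ± 0.14 SE). Bcl6, the germinal centre repressor, was at 4.60 ± 0.267 CPM in IL6Myc-1, against 7.72 ± 0.813 CPM in IL6Myc-2 and was not called. Of 11 tested genes of the B cell receptor and its coreceptors, Cd79a was the 1 called, at 0.647 ± 0.206 CPM in IL6Myc-1, against 2.78 ± 0.608 CPM in IL6Myc-2, while its partner Cd79b was at 167 ± 12.2 CPM in IL6Myc-1, against 325 ± 8.88 CPM in IL6Myc-2, just short of 1 log2 unit (log2 difference -0.96 ± 0.05 SE).

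Immunoglobulin transcripts took a smaller part of the library in IL6Myc-1. The V, D, J and constant genes took 4.79%, 5.19% and 5.14% of the counts in the IL6Myc-1 libraries, against 11.4%, 11.6% and 11.5% in the IL6Myc-2 libraries. Of 9 tested constant and J chain genes, 0 were called higher and 6 lower in IL6Myc-1. The lower share was 66.7%, against 12.3% of all genes, and the median log2 difference was -1.82. Ighd was among the tested genes only through its level in IL6Myc-2, so its call supports nothing. Igkc, the kappa light chain constant gene, had 14009.5, 16036 and 15507 CPM in the IL6Myc-1 libraries, against 53051, 53999.8 and 53899.6 CPM in the IL6Myc-2 libraries (log2 difference -1.82 ± 0.05 SE). Igha, the constant gene of IgA, was 1.91-fold higher in IL6Myc-2, at 21712 ± 1133 CPM in IL6Myc-1, against 41566 ± 818 CPM in IL6Myc-2, and missed the size threshold (log2 difference -0.94 ± 0.04 SE). Jchain, which joins IgA into dimers, was at 6425 ± 197 CPM in IL6Myc-1, against 10599.9 ± 309 CPM in IL6Myc-2, also without a call.

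Of the 6 other constant genes tested, Igkc aside, 5 differed by more than Igha. Iglc2, a lambda light chain constant gene, was at 78.6 ± 0.638 CPM in IL6Myc-1, against 1164 ± 26.6 CPM in IL6Myc-2 (log2 difference -3.89 ± 0.04 SE), and Iglc1 at 76.8 ± 2.14 CPM in IL6Myc-1, against 334 ± 9.99 CPM in IL6Myc-2. Iglc3, another lambda constant gene, was at 424 ± 16.1 CPM in IL6Myc-1, against 629 ± 8.41 CPM in IL6Myc-2 and was not called. Ighm, the constant gene of IgM, was at 422 ± 3.89 CPM in IL6Myc-1, against 1186 ± 4.01 CPM in IL6Myc-2, Ighg3 at 1.12 ± 0.354 CPM in IL6Myc-1, against 48.4 ± 2.14 CPM in IL6Myc-2, and Ighd at 0.258 ± 0.145 CPM in IL6Myc-1, against 4.41 ± 0.527 CPM in IL6Myc-2. The genes of the lambda constant cluster are close copies, so reads can be split among them.

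The same segments and constant gene dominated the antibody loci of both lines. Igha made up 98.1 ± 0.09% of heavy constant counts in IL6Myc-1 and 97.1 ± 0.06% in IL6Myc-2, and Ighm 1.91 ± 0.09% in IL6Myc-1 and 2.77 ± 0.05% in IL6Myc-2. The single segment Igkv4-68 held 99.9% of kappa V counts in both lines, out of 216538 to 437836 kappa V counts per library in IL6Myc-1 and 590717 to 725998 in IL6Myc-2. It also held 99.8% in IL6Myc-3, IL6Myc-4 and IL6Myc-5. Heavy V segments had few counts, 188 to 405 per library in IL6Myc-1 and 173 to 198 in IL6Myc-2, and Ighv11-2 held 96.1 ± 0.98% of them in IL6Myc-1 and 92.5 ± 2.7% in IL6Myc-2. Reference segments stand in for rearranged, mutated ones in such a table, so these shares name the closest listed segment and do not trace a clone.

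The machinery that folds and clears secretory protein was lower in IL6Myc-1 for part of its genes. Of 28 listed and tested genes of endoplasmic reticulum folding and degradation, 0 were called higher and 8 lower. For 22 of them every IL6Myc-1 library was below every IL6Myc-2 library, as for 36.7% of all genes. Man1b1, a mannosidase of the secretory pathway outside this list, was called higher (log2 difference 1.05), so the 0 holds for the list only. Derl3, a channel component of the degradation pathway, had 55.2, 55.9 and 60.4 CPM in the IL6Myc-1 libraries, against 352, 343 and 338 CPM in the IL6Myc-2 libraries (log2 difference -2.59 ± 0.05 SE). Ero1b, which reoxidises disulphide isomerases, was at 124 ± 3.56 CPM in IL6Myc-1, against 411 ± 13.9 CPM in IL6Myc-2. Dnajc3, a cochaperone of BiP, was at 104 ± 2.23 CPM in IL6Myc-1, against 305 ± 7.79 CPM in IL6Myc-2.

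The other 5 lower calls of the list were close to 2-fold. P4hb, a protein disulphide isomerase, was at 1628 ± 25.8 CPM in IL6Myc-1, against 3669.6 ± 40.4 CPM in IL6Myc-2, and Sel1l, the scaffold of the HRD1 ubiquitin ligase, at 1006 ± 21.6 CPM in IL6Myc-1, against 2168 ± 17.2 CPM in IL6Myc-2. Mzb1, an assembly factor for IgM and IgA that marks plasma cells, was at 1249 ± 56.9 CPM in IL6Myc-1, against 2721 ± 23.1 CPM in IL6Myc-2. Edem2, a mannosidase that marks proteins for degradation, was at 291 ± 8.93 CPM in IL6Myc-1, against 607 ± 14.6 CPM in IL6Myc-2, and Herpud1, a partner of the HRD1 complex, at 134 ± 5.73 CPM in IL6Myc-1, against 279 ± 5.73 CPM in IL6Myc-2. On total counts without TMM 3 of the 8 were called, and P4hb, Sel1l, Mzb1, Edem2 and Herpud1 were not. Hspa5, the gene of BiP itself, was at 3102 ± 65.1 CPM in IL6Myc-1, against 4729 ± 16.8 CPM in IL6Myc-2 and was not called, nor was the chaperone gene Hsp90b1 (log2 difference -0.51 ± 0.03 SE). Serp1, a stabiliser of membrane proteins named for its level, was at 1080.1 ± 8.21 CPM in IL6Myc-1, against 2570.3 ± 79.6 CPM in IL6Myc-2, and lost its call on total counts.

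Of 19 tested genes of the integrated stress response, 0 were called higher and 1 lower (5.26%, against 19% of all genes). This was Eif2ak3, which encodes the stress kinase PERK, at 56.6 ± 2.22 CPM in IL6Myc-1, against 157 ± 4.26 CPM in IL6Myc-2 (log2 difference -1.48 ± 0.05 SE). Atf4, the transcription factor translated when that pathway is active, was at 411 ± 10.5 CPM in IL6Myc-1, against 429 ± 5.35 CPM in IL6Myc-2, and Ern1, the sensor kinase upstream of Xbp1 splicing, at 238 ± 7.29 CPM in IL6Myc-1, against 174 ± 14.98 CPM in IL6Myc-2. Neither was called.

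NF-kB genes were lower in IL6Myc-1 for part of the pathway. Of 23 tested members of the classical and alternative pathways, 0 were called higher and 10 lower in IL6Myc-1. The lower share was 43.5%, against 12.3% of all genes, and the median log2 difference was -0.69. Ltb was among the tested genes only through its level in IL6Myc-2, so its call supports nothing. NIK, encoded by Map3k14, activates the alternative arm, in which the precursor p100, encoded by Nfkb2, is cut to p52 and pairs with RelB. IkB proteins, encoded by Nfkbia, Nfkbib and Nfkbie, hold the dimers in the cytoplasm, and Nfkbia and Nfkbie are classical targets of the pathway. The promoters of 4 of these genes are shown because their transcripts differed together and because the kappaB consensus is the known binding motif of the pathway. The sequences are those of RefSeq for GRCm38.p6, 250 bases before to 50 after the annotated start, 5′ to 3′ on the strand of the gene, with matches to the kappaB consensus on either strand in capitals.
Ltb, chr17:35194257-35194556, plus strand: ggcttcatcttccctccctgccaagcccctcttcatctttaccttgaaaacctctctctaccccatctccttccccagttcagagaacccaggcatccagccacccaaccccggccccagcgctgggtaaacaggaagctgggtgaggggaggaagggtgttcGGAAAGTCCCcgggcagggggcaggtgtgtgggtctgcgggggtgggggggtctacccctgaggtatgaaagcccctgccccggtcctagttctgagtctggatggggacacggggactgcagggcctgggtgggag
Nfkbia, chr12:55492598-55492897, minus strand: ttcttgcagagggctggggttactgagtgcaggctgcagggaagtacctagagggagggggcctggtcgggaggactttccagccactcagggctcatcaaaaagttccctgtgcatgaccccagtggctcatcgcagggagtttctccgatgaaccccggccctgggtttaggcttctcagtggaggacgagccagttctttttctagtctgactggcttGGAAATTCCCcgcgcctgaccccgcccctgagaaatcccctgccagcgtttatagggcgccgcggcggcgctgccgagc
Nfkb2, first of 3 listed starts, chr19:46304487-46304786, plus strand: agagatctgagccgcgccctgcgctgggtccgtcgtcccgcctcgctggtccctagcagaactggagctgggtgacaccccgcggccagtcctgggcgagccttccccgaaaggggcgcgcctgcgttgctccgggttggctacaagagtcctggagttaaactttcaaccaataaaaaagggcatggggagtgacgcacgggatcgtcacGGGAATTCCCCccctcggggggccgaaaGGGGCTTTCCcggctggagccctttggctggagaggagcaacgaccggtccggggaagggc
Map3k14, chr11:103267352-103267651, minus strand: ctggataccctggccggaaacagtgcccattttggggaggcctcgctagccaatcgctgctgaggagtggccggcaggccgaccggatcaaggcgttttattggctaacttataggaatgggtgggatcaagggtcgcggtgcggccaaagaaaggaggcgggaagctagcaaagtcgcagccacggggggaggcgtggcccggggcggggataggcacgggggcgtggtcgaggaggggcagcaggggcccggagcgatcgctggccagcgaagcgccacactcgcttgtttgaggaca

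The window of Ltb held 1 match, that of Nfkbia 1, and that of Nfkb2 3, of which overlapping matches were counted apart. That of Map3k14 held 0. Of the 10 called NF-kB genes, 9 had a window in the table and 6 of them a match (Bcl3, Ltb, Nfkb2, Nfkbia, Nfkbie and Tnfaip3), and of the members not called 3 of 10. Over the 9331 tested genes with a window, 5.92% had a match, and over all 32851 windows 4.51%. These genes were listed as pathway members, some of them known targets, and were split by calls in the chosen pair, so the shares carry no test. A match is a run of letters and not a measured binding site.

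Map3k14 had 2.45, 2.56 and 2.74 CPM in the IL6Myc-1 libraries, against 149, 132 and 144 CPM in the IL6Myc-2 libraries. The lines did not overlap, and IL6Myc-2 was 54.9-fold higher (log2 difference -5.79 ± 0.09 SE). Its level was 2.75, 2.95 and 3.004 CPM in IL6Myc-3, IL6Myc-4 and IL6Myc-5, close to that of IL6Myc-1. Traf3 and Traf2, adaptors that keep NIK protein low, were not called (log2 differences -0.41 and -0.46), while Birc2, which encodes the ubiquitin ligase cIAP1 of the same complex, was at 71.6 ± 6.29 CPM in IL6Myc-1, against 153 ± 3.80 CPM in IL6Myc-2. Birc2 lost its call on total counts.

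Among the subunits, the 2 genes of the alternative arm were called and those of the classical arm were not. Nfkb2 had 36.3, 38.4 and 37.7 CPM in the IL6Myc-1 libraries, against 192, 190.3 and 182 CPM in the IL6Myc-2 libraries, with no overlap (log2 difference -2.33 ± 0.05 SE). Relb was at 9.65 ± 1.52 CPM in IL6Myc-1, against 22.5 ± 2.29 CPM in IL6Myc-2, a call lost on total counts. Rela, Rel and Nfkb1 had log2 differences of 0.22, 0.18 and -0.12. The kinase complex genes Chuk, Ikbkb and Ikbkg were at 0.06, -0.23 and -0.21 on the same scale, also without a call.

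Inhibitors and feedback genes were lower in IL6Myc-1 for 4 further members. Nfkbia had 62.1, 65.1 and 64.4 CPM in the IL6Myc-1 libraries, against 253, 254 and 244 CPM in the IL6Myc-2 libraries, so every IL6Myc-1 library was below every IL6Myc-2 library (log2 difference -1.97 ± 0.06 SE). Nfkbie was at 3.03 ± 0.381 CPM in IL6Myc-1, against 18.4 ± 0.516 CPM in IL6Myc-2, and Bcl3, a nuclear IkB protein, at 9.66 ± 1.09 CPM in IL6Myc-1, against 26.4 ± 1.10 CPM in IL6Myc-2. Tnfaip3, which encodes the deubiquitinase A20, was at 9.31 ± 1.37 CPM in IL6Myc-1, against 19.2 ± 1.34 CPM in IL6Myc-2, but its log2 difference of -1.06 became -0.94 without IL6Myc-1 replicate 1 and -0.77 on total counts. Nfkbiz, another nuclear IkB gene, went the other way without a call, at 13.5 ± 0.186 CPM in IL6Myc-1, against 8.26 ± 0.552 CPM in IL6Myc-2.

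The ligand genes Ltb and Tnf were called lower as well. Ltb, lymphotoxin beta, had 0.0231, 0 and 0.0961 CPM in the IL6Myc-1 libraries, against 276, 280.2 and 271 CPM in the IL6Myc-2 libraries, with 3 counts in all in IL6Myc-1 and 15722 in IL6Myc-2. Tnf was at 0.423 ± 0.198 CPM in IL6Myc-1, against 11.4 ± 0.955 CPM in IL6Myc-2 (log2 difference -4.78 ± 0.31 SE). Tnfrsf13b, the gene of the BAFF and APRIL receptor TACI, was at 137 ± 0.415 CPM in IL6Myc-1, against 138 ± 3.89 CPM in IL6Myc-2, without a call.

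**Figure D2:**
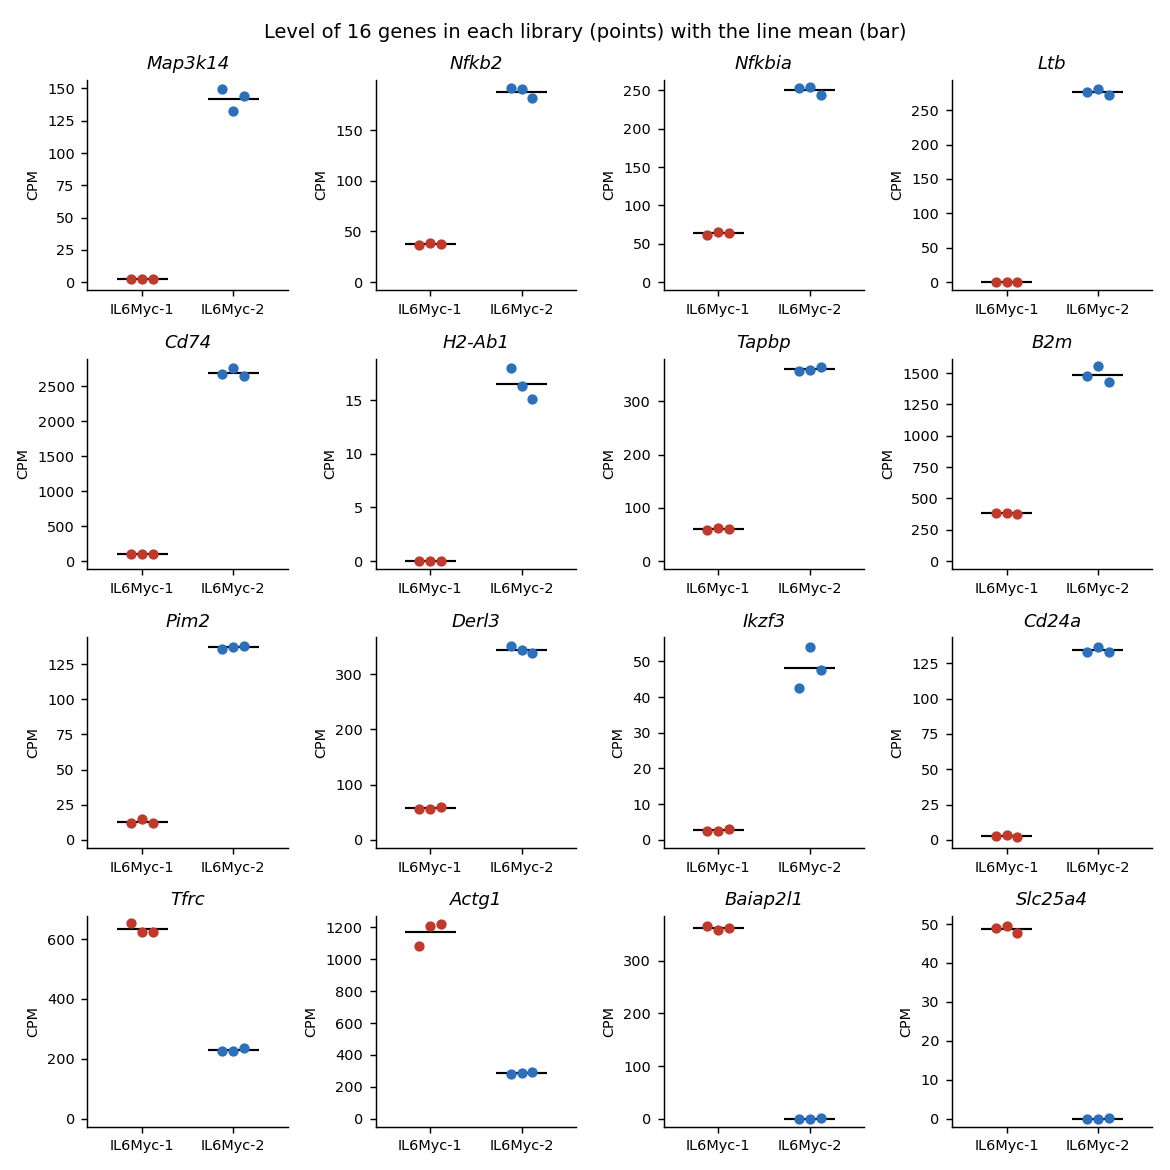
Level in CPM of 16 genes in each of the 3 libraries of IL6Myc-1 (left, red) and of IL6Myc-2 (right, blue), each panel on its own linear axis from 0, with bars at the line means. The lines do not overlap in any panel; Map3k14 to Cd24a are lower in IL6Myc-1 and Tfrc, Actg1, Baiap2l1 and Slc25a4 higher.

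MHC class II transcripts were lower in IL6Myc-1 wherever they were tested. These molecules present peptides to CD4 T cells and are normally shut down when B cells become plasma cells. Of 10 listed genes 4 passed the filter on low values, and 4 of 4 were called lower, with a median log2 difference of -4.30. H2-Ab1 and H2-Eb1 passed only through IL6Myc-2, where they are high, so their number supports nothing. Cd74, the chaperone chain of class II molecules, had 96.6, 97.8 and 101 CPM in the IL6Myc-1 libraries, against 2683, 2764 and 2646 CPM in the IL6Myc-2 libraries (log2 difference -4.78 ± 0.04 SE). H2-Ab1, a class II beta chain, was listed at 0 in all 3 IL6Myc-1 libraries, against 18.0, 16.4 and 15.1 CPM in IL6Myc-2, at least 497-fold higher there when a floor of 3 counts is put in for the 0. H2-Eb1 was at 0.947 ± 0.190 CPM in IL6Myc-1, against 13.5 ± 0.707 CPM in IL6Myc-2, and H2-DMa, which loads peptides, at 2.20 ± 0.284 CPM in IL6Myc-1, against 11.4 ± 0.779 CPM in IL6Myc-2. Below the filter, H2-Aa had 4 counts in IL6Myc-1 and 54 in IL6Myc-2, and H2-DMb2 went the other way, with 48 counts in IL6Myc-1 and 22 in IL6Myc-2. Ciita, the class II transactivator, had 3 counts in IL6Myc-1 and 2 in IL6Myc-2.

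Class I presentation followed in the same direction at smaller size. Of 18 tested genes, 0 were called higher and 9 (50%) lower in IL6Myc-1, against 12.3% lower over all genes. All of those called but B2m lie on chromosome 17, where 25.4% of tested genes were called lower. For 15 of the 18, every IL6Myc-1 library was below every IL6Myc-2 library, as for 36.7% of all genes. The median log2 difference was -1.01. B2m, the common light chain of class I, had 383, 381 and 376 CPM in the IL6Myc-1 libraries, against 1473, 1556 and 1429.6 CPM in the IL6Myc-2 libraries (log2 difference -1.97 ± 0.04 SE). Tapbp, whose product tapasin bridges class I to the peptide transporter, had 58.9, 62.7 and 59.996 CPM in the IL6Myc-1 libraries, against 358, 359.7 and 365 CPM in the IL6Myc-2 libraries (log2 difference -2.58 ± 0.04 SE).

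The transporter, the immunoproteasome and the heavy chains gave the other calls. Tap2 was at 29.2 ± 2.79 CPM in IL6Myc-1, against 95.98 ± 1.82 CPM in IL6Myc-2 and was called, while its partner Tap1 was at 46.3 ± 1.65 CPM in IL6Myc-1, against 79.2 ± 3.28 CPM in IL6Myc-2 and was not. Psmb8 and Psmb9, inducible catalytic subunits of the proteasome, were at 87.3 ± 4.39 CPM in IL6Myc-1, against 304 ± 6.36 CPM in IL6Myc-2 and at 23.6 ± 1.45 CPM in IL6Myc-1, against 70.4 ± 4.10 CPM in IL6Myc-2. Another such subunit, Psmb10, was at 25.1 ± 2.94 CPM in IL6Myc-1, against 22.7 ± 2.87 CPM in IL6Myc-2, with overlapping libraries. H2-K1 was at 294 ± 5.88 CPM in IL6Myc-1, against 857 ± 4.44 CPM in IL6Myc-2 and H2-D1 at 994 ± 44.4 CPM in IL6Myc-1, against 2216 ± 21.5 CPM in IL6Myc-2, and the nonclassical genes H2-Q4 and H2-Q6 were called close to 2-fold. H2-D1, H2-Q4 and H2-Q6 were not called on total counts, and such class I genes are so alike that their reads may be shared out between them. Nlrc5, the class I transactivator, was at 12.6 ± 2.04 CPM in IL6Myc-1, against 13.8 ± 2.06 CPM in IL6Myc-2, with overlapping libraries.

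Interferon response genes moved in both directions. Of 20 tested, 5 were called higher and 3 lower in IL6Myc-1 (40%, against 19% of all genes). The lower ones included Irf1, at 35.9 ± 1.87 CPM in IL6Myc-1, against 106 ± 1.15 CPM in IL6Myc-2, and Igtp, an interferon-inducible GTPase, at 65.5 ± 1.59 CPM in IL6Myc-1, against 144 ± 3.48 CPM in IL6Myc-2. Igtp lost its call on total counts. Of the 5 higher, Ifi204 had the highest level, 7.35 ± 1.89 CPM in IL6Myc-1, against 0.0523 ± 0.0484 CPM in IL6Myc-2, with 3 counts in IL6Myc-2. Ifi207, Mx1, Oasl1 and Xaf1 were all under 5 CPM in IL6Myc-1, and the Ifi200 genes have close relatives among which reads can be split.

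Of 15 tested IL-6 and JAK/STAT pathway genes, 0 were called higher and 5 lower in IL6Myc-1 (33.3%, against 12.3% lower over all genes). Il6ra and Il6st, the receptor chains of interleukin 6, were at 13.99 ± 0.153 CPM in IL6Myc-1, against 14.7 ± 1.89 CPM in IL6Myc-2 and at 156 ± 10.6 CPM in IL6Myc-1, against 141 ± 5.63 CPM in IL6Myc-2, and neither was called. Stat3 was at 107 ± 2.35 CPM in IL6Myc-1, against 169 ± 8.09 CPM in IL6Myc-2, short of the threshold (log2 difference -0.65 ± 0.05 SE). Socs3, the feedback inhibitor that STAT3 induces, was at 3.78 ± 0.431 CPM in IL6Myc-1, against 17.7 ± 1.59 CPM in IL6Myc-2 (log2 difference -2.23 ± 0.11 SE), and Stat5a was at 13.8 ± 1.67 CPM in IL6Myc-1, against 32.4 ± 0.828 CPM in IL6Myc-2. Stat5a lost its call on total counts.

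The Pim kinases, survival kinases that both STAT and NF-kB factors are known to induce, gave 2 of these calls. Pim2, on which myeloma cells often depend, had 12.2, 14.8 and 11.9 CPM in the IL6Myc-1 libraries, against 136, 137 and 138 CPM in the IL6Myc-2 libraries, with no overlap (log2 difference -3.41 ± 0.08 SE). Pim1 had 289, 316 and 323 CPM in the IL6Myc-1 libraries, against 1105, 1122 and 1177 CPM in the IL6Myc-2 libraries (log2 difference -1.88 ± 0.04 SE).

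Cytokine receptors gave 0 higher and 5 lower calls among 15 tested (33.3%, against 12.3% lower over all genes). Il2rg, the common gamma chain of several interleukin receptors, was at 33.4 ± 3.32 CPM in IL6Myc-1, against 190.2 ± 3.09 CPM in IL6Myc-2 (log2 difference -2.50 ± 0.06 SE). Il10ra and Il15ra were at 3.19 ± 0.354 CPM in IL6Myc-1, against 12.6 ± 1.33 CPM in IL6Myc-2 and at 3.58 ± 0.458 CPM in IL6Myc-1, against 12.7 ± 0.748 CPM in IL6Myc-2. Il2rb, with 3 counts in IL6Myc-1 and 165 in IL6Myc-2, and Insr, the insulin receptor gene, with 2 counts in IL6Myc-1 and 250 in IL6Myc-2, stayed under 5 CPM. Igf1r, the receptor of another myeloma growth factor, was not called (log2 difference -0.34 ± 0.08 SE).

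Of 21 tested RAS and MAPK genes, 3 were called higher and 2 lower (23.8%, near the 19% of all genes). Jun, a subunit of the AP-1 factor, was at 776 ± 31.3 CPM in IL6Myc-1, against 365 ± 10.1 CPM in IL6Myc-2, and Etv4, a transcription factor downstream of ERK, at 15.6 ± 0.841 CPM in IL6Myc-1, against 5.68 ± 0.417 CPM in IL6Myc-2. Dusp6, the phosphatase that switches ERK off, was at 7.92 ± 0.125 CPM in IL6Myc-1, against 19.3 ± 1.90 CPM in IL6Myc-2, a call lost on total counts. Nras, a RAS GTPase gene, was at 153 ± 4.09 CPM in IL6Myc-1, against 81.9 ± 2.45 CPM in IL6Myc-2, without a call. The remaining calls, Spry1 and Egr1, were under 1 CPM in both lines.

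Of 13 tested BCL2 family genes, 1 was called higher and 1 lower (15.4%, against 19% of all genes), and of 13 death receptor and caspase genes 0 higher and 1 lower (7.69%). Pmaip1, which encodes the MCL1 antagonist NOXA, was at 179.8 ± 4.98 CPM in IL6Myc-1, against 77.2 ± 3.18 CPM in IL6Myc-2 (log2 difference 1.22 ± 0.04 SE). Bik, another BH3-only gene, was at 0.778 ± 0.222 CPM in IL6Myc-1, against 7.30 ± 1.002 CPM in IL6Myc-2, and Ripk3, the kinase of necroptosis, at 0.657 ± 0.114 CPM in IL6Myc-1, against 12.7 ± 3.24 CPM in IL6Myc-2 (log2 difference -4.23 ± 0.20 SE). Mcl1, the survival factor of plasma cells, was at 535 ± 14.4 CPM in IL6Myc-1, against 639.8 ± 22.3 CPM in IL6Myc-2 and Bcl2 at 25.98 ± 0.516 CPM in IL6Myc-1, against 30.7 ± 1.94 CPM in IL6Myc-2, neither called.

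Of 14 tested surface targets of myeloma therapy or immune checkpoints, 2 were called higher and 4 lower (42.9%, against 19% of all genes). Tnfrsf17, which encodes BCMA, was at 47.6 ± 3.50 CPM in IL6Myc-1, against 8.81 ± 0.289 CPM in IL6Myc-2 (log2 difference 2.43 ± 0.08 SE). Cd38 and Slamf7 were not called, at 80.3 ± 1.71 CPM in IL6Myc-1, against 69.3 ± 1.53 CPM in IL6Myc-2 and at 165 ± 0.399 CPM in IL6Myc-1, against 107 ± 3.23 CPM in IL6Myc-2. Cd52, the target of alemtuzumab in human cells, was at 91.8 ± 3.78 CPM in IL6Myc-1, against 399 ± 11.05 CPM in IL6Myc-2 (log2 difference -2.12 ± 0.04 SE).

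The other 3 lower calls were genes of ligands. Cd80, a ligand of CD28, was at 4.55 ± 0.0297 CPM in IL6Myc-1, against 18.1 ± 1.33 CPM in IL6Myc-2, and Icosl, the ligand of ICOS, at 0.820 ± 0.303 CPM in IL6Myc-1, against 7.32 ± 0.159 CPM in IL6Myc-2. Cd200, an inhibitory ligand for myeloid cells, was at 0.0824 ± 0.0611 CPM in IL6Myc-1, against 9.06 ± 3.13 CPM in IL6Myc-2, with IL6Myc-2 libraries spread from 6.13 to 12.4 CPM. Cd47 and Cd48, which also encode surface ligands, were higher in every IL6Myc-1 library without a call (log2 differences 0.29 and 0.64). Cd24a, a surface glycoprotein of immature B cells and a mature B cell marker in the list used, had 2.84, 3.52 and 2.21 CPM in the IL6Myc-1 libraries, against 133, 137 and 133 CPM in the IL6Myc-2 libraries (log2 difference -5.53 ± 0.08 SE). Of the 8 markers in that list 6 were under 1 CPM in each line. Ms4a1, the gene of CD20, was above it and went the other way without a call, at 136 ± 2.68 CPM in IL6Myc-1, against 92.8 ± 1.45 CPM in IL6Myc-2.

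Adhesion genes split, with 3 of 21 called higher and 7 lower in IL6Myc-1 (47.6%, against 19% of all genes). Itgb3, the beta chain of the vitronectin receptor, had 0.208, 0.459 and 0.384 CPM in the IL6Myc-1 libraries, against 79.4, 77.3 and 84.3 CPM in the IL6Myc-2 libraries (log2 difference -7.93 ± 0.18 SE). Its usual partner Itgav went the other way, at 41.3 ± 4.16 CPM in IL6Myc-1, against 17.3 ± 2.70 CPM in IL6Myc-2. Itgb2 and Itgam, which together form the leukocyte integrin Mac-1, were at 38.9 ± 1.22 CPM in IL6Myc-1, against 140.2 ± 4.87 CPM in IL6Myc-2 and at 1.62 ± 0.397 CPM in IL6Myc-1, against 11.6 ± 0.226 CPM in IL6Myc-2.

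Itga6 and Itga2, alpha chains of laminin and collagen receptors, were called higher, at 7.62 ± 1.25 CPM in IL6Myc-1, against 3.34 ± 0.188 CPM in IL6Myc-2 and at 6.80 ± 0.567 CPM in IL6Myc-1, against 2.22 ± 0.767 CPM in IL6Myc-2. Itga4 and Cd44, which anchor plasma cells in the marrow, were at 316 ± 23.6 CPM in IL6Myc-1, against 221 ± 2.61 CPM in IL6Myc-2 and at 1047 ± 12.3 CPM in IL6Myc-1, against 554 ± 7.98 CPM in IL6Myc-2, both higher in every IL6Myc-1 library but under 1 log2 unit. Fat1, an atypical cadherin, was listed at 0 in IL6Myc-1, against 37.3, 14.7 and 17.3 CPM in IL6Myc-2, the first of these more than 2-fold the others. Mfge8, a bridge between integrins and dying cells, was listed at 0 in IL6Myc-1 as well, against 39.4 ± 2.81 CPM in IL6Myc-2, at least 1186-fold higher there.

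Of 7 tested chemokine and receptor genes 1 was called higher and 3 lower (57.1%, against 19% of all genes). Ccr10, a homing receptor of IgA plasma cells, was at 1.86 ± 0.525 CPM in IL6Myc-1, against 25.7 ± 0.876 CPM in IL6Myc-2 (log2 difference -3.75 ± 0.15 SE). Cxcr4, which retains plasma cells in the marrow, was at 141 ± 2.45 CPM in IL6Myc-1, against 87.9 ± 2.60 CPM in IL6Myc-2 and was not called. Ccl3, a chemokine linked to bone disease in human myeloma, was at 3.49 ± 0.112 CPM in IL6Myc-1, against 0.0204 ± 0.0354 CPM in IL6Myc-2. Ccl3 was among the tested genes only through the IL6Myc-1 libraries, so its call supports nothing. It was not tested when any 1 of them was left out. Of 4 tested bone disease genes 2 were called (50%, against 19% of all genes), Ccl3 again and Igfbp3. Igfbp3 was at 20.9 ± 0.524 CPM in IL6Myc-1, against 9.99 ± 0.587 CPM in IL6Myc-2. Its call was lost in the alternative runs with limma on log2(CPM + 1) and log2(CPM + 5) (log2 differences 0.996 and 0.79).

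Among actin regulators, relatives were called in opposite directions. Baiap2l1, which encodes a membrane-bending adaptor of the actin cytoskeleton, had 366, 358 and 363 CPM in the IL6Myc-1 libraries, against 0.191, 0 and 0.429 CPM in the IL6Myc-2 libraries, while its relative Baiap2 was at 0.128 ± 0.0588 CPM in IL6Myc-1, against 5.98 ± 0.333 CPM in IL6Myc-2. Of the 19 tested genes of this list, 1 was called higher and 4 lower (26.3%, against 19% of all genes). Nckap1, a core subunit of the WAVE complex, was listed at 0 in IL6Myc-1, against 11.6 ± 1.34 CPM in IL6Myc-2, and Abi3, an adaptor of that complex, was at 6.21 ± 1.25 CPM in IL6Myc-1, against 13.8 ± 1.12 CPM in IL6Myc-2, a call lost on total counts. Abi1, Abi2 and Wasf2, other subunits of the complex, were not called (log2 differences 0.48, 0.88 and -0.00). Evl, a filament elongation factor outside the list, was listed at 0 in IL6Myc-1 and at 36.8 ± 3.79 CPM in IL6Myc-2. Actg1, cytoplasmic gamma actin, had 1086, 1208 and 1223 CPM in the IL6Myc-1 libraries, against 283, 286 and 295 CPM in the IL6Myc-2 libraries (log2 difference 2.02 ± 0.04 SE).

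**Figure D3:**
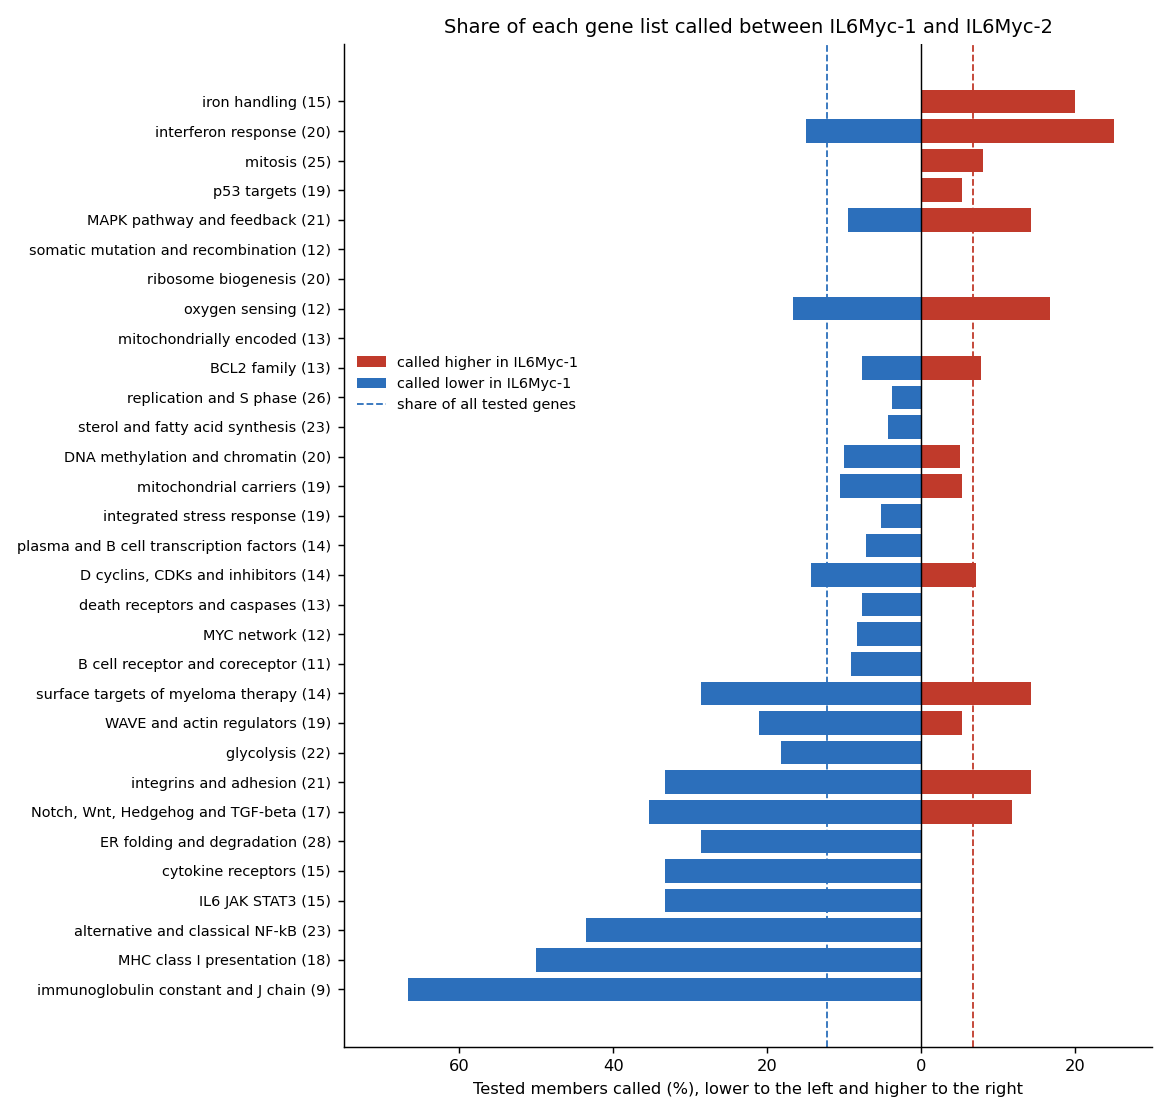
Percent of the tested members of each gene list (number in parentheses, lists with 9 or more tested members other than marker lists) called higher in IL6Myc-1 to the right and lower to the left, with dashed lines at the shares of all tested genes, 6.71% and 12.3%. Immunoglobulin, class I, NF-kB, JAK/STAT, cytokine receptor and endoplasmic reticulum lists lie at the lower end, with 0 members called higher.

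Some metabolic lists were called at about the rate of all genes (19%) and held a few large differences. Called were 18.2% of glycolysis, 20% of iron and 15.8% of mitochondrial carrier genes. Oxygen sensing had 33.3% called, sterol and fatty acid synthesis 4.35%, and the mitochondrial genome 0%. These shares include Egln1 of oxygen sensing and Slc25a13 of the carriers. Both were tested only through their levels in IL6Myc-2, so their calls support nothing. Of 22 glycolysis genes, 0 were called higher and 4 lower. Slc16a3, the lactate exporter MCT4, had 2 counts in IL6Myc-1 and was at 63.2 ± 1.30 CPM in IL6Myc-2. Pfkm, the muscle form of phosphofructokinase, was at 1.92 ± 0.544 CPM in IL6Myc-1, against 18.03 ± 0.740 CPM in IL6Myc-2. Ldha, lactate dehydrogenase A, was not called, at 1031 ± 20.1 CPM in IL6Myc-1, against 1119 ± 15.6 CPM in IL6Myc-2.

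Iron genes gave 3 higher and 0 lower calls of 15. Tfrc, the transferrin receptor through which dividing cells take up iron, had 655, 624 and 624 CPM in the IL6Myc-1 libraries, against 227, 227 and 235 CPM in the IL6Myc-2 libraries (log2 difference 1.46 ± 0.04 SE). Slc40a1, the iron exporter ferroportin, was at 1.99997 ± 0.412 CPM in IL6Myc-1 and listed at 0 in IL6Myc-2, and Tfr2, a second transferrin receptor, was at 3.51 ± 0.403 CPM in IL6Myc-1, against 1.54 ± 0.668 CPM in IL6Myc-2. Fth1, ferritin heavy chain, was on the other side without a call, at 776 ± 15.8 CPM in IL6Myc-1, against 1340.1 ± 37.5 CPM in IL6Myc-2.

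Oxygen sensing gave 2 calls in each direction among 12 genes. Egln1 and Egln3, prolyl hydroxylases that mark HIF for destruction, were listed at 0 in IL6Myc-1, against 25.4 ± 0.717 CPM and 5.53 ± 0.517 CPM in IL6Myc-2. Egln1 was also listed at 0 in IL6Myc-3, IL6Myc-4 and IL6Myc-5, so its call supports nothing. In those lines Egln3 was at 10.7, 0.113 and 0.794 CPM and Bnip3 at 55.1, 44.9 and 167 CPM. Bnip3, a mitophagy gene, was at 229 ± 2.59 CPM in IL6Myc-1, against 61.4 ± 1.53 CPM in IL6Myc-2, and Ndrg1, a stress-response gene, at 8.41 ± 0.440 CPM in IL6Myc-1, against 0.581 ± 0.243 CPM in IL6Myc-2. Of other genes known as HIF targets, Vegfa, Ldha and Ankrd37 were not called (log2 differences -0.12, -0.12 and -0.98), and Pfkfb3, a glycolytic regulator, was called lower by a margin that total counts removed (log2 difference -1.02).

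Mitochondrial carriers gave 1 higher and 2 lower calls among 19. Slc25a4, an ADP/ATP exchanger, had 49.001, 49.5 and 47.7 CPM in the IL6Myc-1 libraries, against 0, 0 and 0.0613 CPM in the IL6Myc-2 libraries. Slc25a13, the aspartate and glutamate carrier citrin, was listed at 0 in IL6Myc-1 and at 10.5 ± 0.260 CPM in IL6Myc-2. It was tested only through IL6Myc-2, so its call supports nothing. The 13 transcripts of the mitochondrial genome were not called, with a median log2 difference of -0.41. Of 23 genes of sterol and fatty acid synthesis, 1 was called.

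Proliferation genes leaned the opposite way from the immunoglobulin and antigen presentation genes, at sizes mostly below the threshold. Of 26 replication genes, 0 were called higher and 1 lower, yet 20 had every IL6Myc-1 library above every IL6Myc-2 library and the median log2 difference was 0.48. Of 25 mitosis genes, 2 were called higher and 0 lower, 20 lay wholly above, and the median was 0.66 (36.6% of all genes lay wholly above). On total counts 12 of the 25 were called higher. Pcna, the sliding clamp of replication, was at 293 ± 4.62 CPM in IL6Myc-1, against 179 ± 5.14 CPM in IL6Myc-2, and Plk1, a mitotic kinase, at 77.2 ± 1.42 CPM in IL6Myc-1, against 44.4 ± 0.926 CPM in IL6Myc-2, neither called. Ccnb2, a mitotic cyclin, was just short of the threshold, at 82.4 ± 2.02 CPM in IL6Myc-1, against 41.8 ± 2.20 CPM in IL6Myc-2 (log2 difference 0.98 ± 0.05 SE), while Mki67 and Top2a had smaller differences (log2 differences 0.18 and 0.04).

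Of the 2 called mitosis genes, Knl1, a kinetochore scaffold, was at 50.7 ± 8.65 CPM in IL6Myc-1, against 22.1 ± 0.934 CPM in IL6Myc-2. Kif11, the kinesin that separates spindle poles, was at 159 ± 10.3 CPM in IL6Myc-1, against 78.9 ± 1.84 CPM in IL6Myc-2, with a log2 difference of 1.02 that became 0.96 without IL6Myc-1 replicate 1 and 0.99 without IL6Myc-2 replicate 2. E2f2, the 1 lower replication gene, was at 69.6 ± 1.61 CPM in IL6Myc-1, against 144 ± 12.03 CPM in IL6Myc-2, and its log2 difference of -1.05 became -0.99 without IL6Myc-2 replicate 1 and -0.76 on total counts.

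Ccnd2, a D cyclin that drives entry into S phase, was at 1871 ± 10.6 CPM in IL6Myc-1, against 861 ± 14.4 CPM in IL6Myc-2 (log2 difference 1.12 ± 0.03 SE), and Ccnd3 was not called, at 32.7 ± 2.57 CPM in IL6Myc-1, against 36.4 ± 1.98 CPM in IL6Myc-2. Of 20 ribosome biogenesis genes, a class that MYC drives, 0 were called in either direction. Of 12 tested MYC network genes the 1 call was Mycl, with 15 counts in IL6Myc-1 and 202 in IL6Myc-2. Of 19 p53 target genes the 1 call was Pmaip1, and Cdkn1a and Mdm2 were not called (log2 differences -0.50 and 0.39).

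Of 20 chromatin genes 1 was called higher and 2 lower, near the share over all genes. Dnmt3a, a de novo DNA methyltransferase, had 0.439, 2.91 and 0.384 CPM in the IL6Myc-1 libraries, against 16.1, 14.2 and 13.3 CPM in the IL6Myc-2 libraries, so IL6Myc-1 replicate 2 was well above its replicates but below each IL6Myc-2 library (log2 difference -3.62 ± 0.38 SE). Hdac9, a class IIa histone deacetylase, was at 29.5 ± 0.726 CPM in IL6Myc-1, against 5.51 ± 0.780 CPM in IL6Myc-2 (log2 difference 2.42 ± 0.13 SE). Tet3, which oxidises methylcytosine, was at 28.9 ± 1.25 CPM in IL6Myc-1, against 66.9 ± 2.44 CPM in IL6Myc-2, a call lost on total counts. Of 12 tested genes of somatic mutation and recombination 0 were called.

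Notch, Wnt, Hedgehog and TGF-beta genes gave 2 higher and 6 lower calls among 17 (47.1%, against 19% of all genes). Wnt10a, a Wnt ligand, had 4.78, 5.81 and 6.10 CPM in the IL6Myc-1 libraries, against 260.5, 262 and 263 CPM in the IL6Myc-2 libraries, 47.1-fold higher in IL6Myc-2 (log2 difference -5.59 ± 0.07 SE). Kremen1, a coreceptor that dampens Wnt signalling and is outside the list, was at 478 ± 11.99 CPM in IL6Myc-1, against 151 ± 2.33 CPM in IL6Myc-2. Notch1 was at 64.4 ± 3.51 CPM in IL6Myc-1, against 25.5 ± 1.65 CPM in IL6Myc-2, and its target Hes1 at 9.56 ± 0.981 CPM in IL6Myc-1, against 25.8 ± 1.65 CPM in IL6Myc-2, in opposite directions. Tgfb1 was at 3.38 ± 0.632 CPM in IL6Myc-1, against 14.7 ± 1.24 CPM in IL6Myc-2 (log2 difference -2.12 ± 0.14 SE).

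The widest contrasts were genes near 0 in one line. With at least 5 CPM in IL6Myc-1 and fewer than 3 counts in IL6Myc-2 there were 8 genes, 3 of them at 0, and 47 the other way round, 32 of them at 0. Abo, the glycosyltransferase of the ABO locus, had 153, 157 and 155 CPM in the IL6Myc-1 libraries, against 0.0478, 0 and 0 CPM in the IL6Myc-2 libraries, which is 13949 counts in IL6Myc-1 and 1 count in IL6Myc-2. Ly6k, a GPI-anchored surface protein known mainly from testis, had 153, 171 and 163 CPM in the IL6Myc-1 libraries, against 0, 0.0508 and 0 CPM in the IL6Myc-2 libraries. Lncenc1, a long noncoding RNA of embryonic stem cells, was at 273 ± 8.45 CPM in IL6Myc-1, against 0.441 ± 0.0743 CPM in IL6Myc-2 (log2 difference 9.27 ± 0.11 SE). Ptprtos was at 298 ± 8.69 CPM in IL6Myc-1, against 0.584 ± 0.169 CPM in IL6Myc-2. It is an antisense transcript, and whether its reads were counted by strand is not given in the sources used here. Nucb2, the precursor of nesfatin, was at 37.3 ± 3.19 CPM in IL6Myc-1, against 0.177 ± 0.0307 CPM in IL6Myc-2.

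Genes at lower levels also showed this contrast on the higher side. Rbm24, an RNA-binding splicing factor of muscle, was at 18.2 ± 0.487 CPM in IL6Myc-1 and listed at 0 in IL6Myc-2, at least 346-fold higher in IL6Myc-1. Jcad, a junction protein of endothelial cells, was at 10.2 ± 0.720 CPM and Lrp12, a lipoprotein receptor relative, at 5.77 ± 0.153 CPM in IL6Myc-1, both listed at 0 in IL6Myc-2. Meis2, a homeobox gene, was at 10.2 ± 0.761 CPM in IL6Myc-1, against 0.0703 ± 0.0281 CPM in IL6Myc-2. Asb9, Elapor2 and Pcnx2 were at 7.88 ± 0.983, 6.70 ± 0.701 and 8.34 ± 1.05 CPM in IL6Myc-1, with 2, 1 and 4 counts in IL6Myc-2.

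On the lower side, Igfbp2, which binds insulin-like growth factors, was listed at 0 in IL6Myc-1 and at 68.8 ± 0.957 CPM in IL6Myc-2, at least 2069-fold higher there. Fabp4, the fatty acid binding protein of adipocytes and macrophages, was at 0.0616 ± 0.107 CPM in IL6Myc-1, against 62.6 ± 5.05 CPM in IL6Myc-2. H2-M10.1, a nonclassical class I gene, was at 0.0551 ± 0.0496 CPM in IL6Myc-1, against 63.3 ± 3.74 CPM in IL6Myc-2. Rhox2d and Rhox2h, X-linked homeobox genes of a family of near copies, were listed with 0 counts and 1 count in IL6Myc-1, and were at 59.1 ± 4.68 CPM and 37.1 ± 0.201 CPM in IL6Myc-2. Serpina3g, a protease inhibitor of activated lymphocytes, was listed at 0 in IL6Myc-1 and at 34.7 ± 1.64 CPM in IL6Myc-2. Unc5b, a netrin receptor, had 3 counts in IL6Myc-1 and was at 34.6 ± 0.519 CPM in IL6Myc-2.

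Several called genes were abundant in both lines. Neat1, the nuclear RNA that builds paraspeckles, was at 1049 ± 78.7 CPM in IL6Myc-1, against 392 ± 44.4 CPM in IL6Myc-2, and Man1b1, a mannosidase of the secretory pathway, at 633 ± 5.51 CPM in IL6Myc-1, against 305 ± 1.48 CPM in IL6Myc-2. Abcd2, a peroxisomal fatty acid transporter, was at 409 ± 8.81 CPM in IL6Myc-1, against 138 ± 7.25 CPM in IL6Myc-2, and Mt2, a metallothionein, at 379 ± 28.7 CPM in IL6Myc-1, against 120.4 ± 2.78 CPM in IL6Myc-2. Ly6d, a lymphoid surface marker, was at 911 ± 12.4 CPM in IL6Myc-1, against 1965 ± 92.3 CPM in IL6Myc-2, a call lost on total counts.

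Where each difference came from was read from the other 3 lines. A line was taken to stand outside when its mean lay at least 1 log2 unit beyond the range of the means of IL6Myc-3, IL6Myc-4 and IL6Myc-5. Of the 2238 called genes, IL6Myc-1 stood above the others for 119 and below for 307, IL6Myc-2 stood above for 312 and below for 105, both stood outside for 78, and neither for 1317 (58.8%). With a margin of 0.5 log2 unit instead, neither stood outside for 582, so this split depends on the margin.

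By this measure IL6Myc-2 stood above for 8 of the 10 called NF-kB genes, all but Birc2 and Bcl3, against 13.9% of all called genes. Of the 4 called class II genes, IL6Myc-2 stood above for Cd74 and H2-Ab1, and both lines stood outside for H2-Eb1. For H2-DMa IL6Myc-1 stood below, with 5.63, 8.84 and 6.91 CPM in IL6Myc-3, IL6Myc-4 and IL6Myc-5. Ltb, H2-Ab1 and H2-Eb1 were tested only through their levels in IL6Myc-2, so their place here supports nothing. Nfkb2 was 33.5, 31.7 and 35.3 CPM in IL6Myc-3, IL6Myc-4 and IL6Myc-5, and Cd74 was 66.1, 167 and 175 CPM in IL6Myc-3, IL6Myc-4 and IL6Myc-5. Ltb was 0.190, 0.0644 and 0.163 CPM in IL6Myc-3, IL6Myc-4 and IL6Myc-5. For Cd24a, by contrast, IL6Myc-1 stood out, since its level was 142, 45.2 and 215 CPM in IL6Myc-3, IL6Myc-4 and IL6Myc-5. Psmb8 was 239, 205 and 279.6 CPM in IL6Myc-3, IL6Myc-4 and IL6Myc-5, again nearer to IL6Myc-2, whereas Abo was listed at 0 and Nucb2 was 0.136, 0.0494 and 0.178 CPM in IL6Myc-3, IL6Myc-4 and IL6Myc-5. Ly6k was 217, 149.9 and 175 CPM in IL6Myc-3, IL6Myc-4 and IL6Myc-5, near the level of IL6Myc-1.

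**Figure D4:**
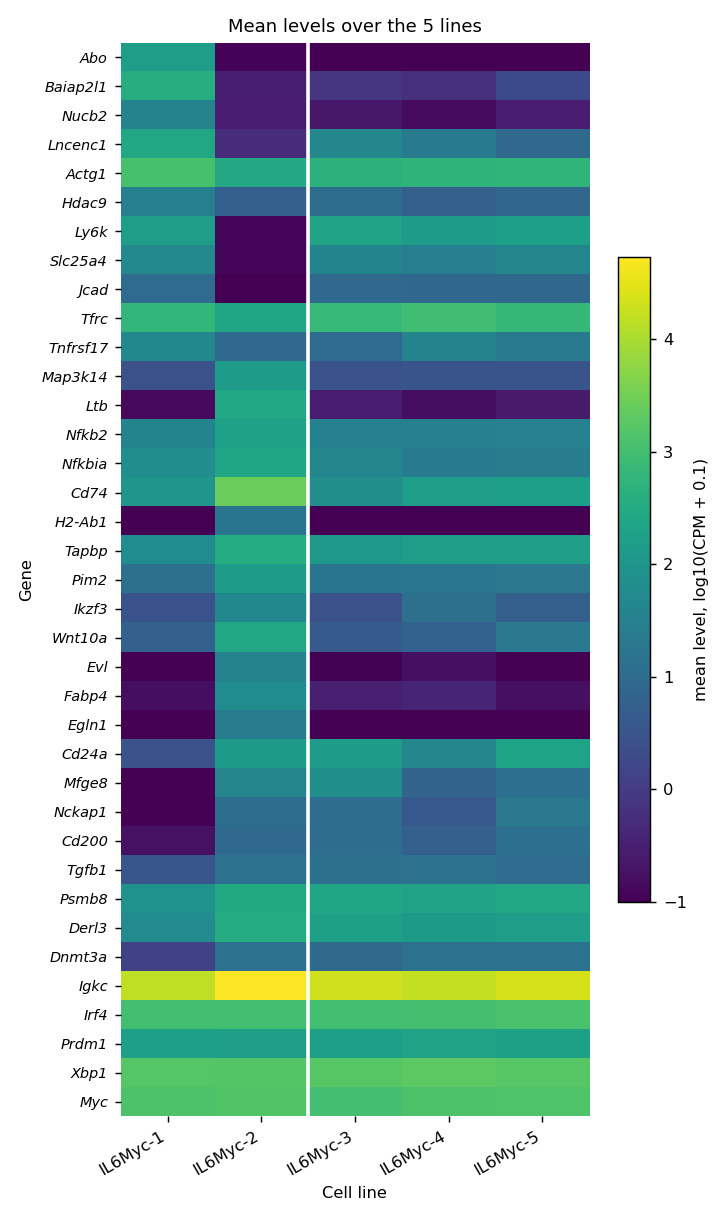
Mean level, as log10(CPM + 0.1), of 37 genes in the 5 lines, 3 libraries each, with IL6Myc-1 and IL6Myc-2 to the left of the white line. Abo to Hdac9 are highest in IL6Myc-1, Map3k14 to Egln1 are highest in IL6Myc-2, Cd24a to Psmb8 are lowest in IL6Myc-1, and Irf4, Prdm1, Xbp1 and Myc vary least by colour.

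The 9 libraries of IL6Myc-3, IL6Myc-4 and IL6Myc-5 took no part in the contrast. Among these 3 lines 2107 genes (17.9%) were called by a quasi-likelihood F-test in edgeR (adjusted p under 0.05, highest and lowest line at least 1 log2 unit apart). They shared 1188 genes with the calls of the pair, 53.1% of the pair's and 56.4% of theirs. Of the genes not called between IL6Myc-1 and IL6Myc-2, 9.64% were called among the other 3 lines.

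Differences were not spread evenly over the chromosomes. Of all tested genes, 12.3% were called lower and 6.71% higher in IL6Myc-1. Chromosome 17 carries the MHC, with all the called class I presentation genes except B2m. On this chromosome 160 of 631 tested genes (25.4%) were called lower and 26 (4.12%) higher. Its median log2 difference was -0.37. Over its genes the median of IL6Myc-2 against the mean of the other 3 lines was 0.24, and that of IL6Myc-1 was -0.03. Chromosome 2 had 109 of 956 genes (11.4%) called higher and 75 (7.85%) lower. Its median was 0.35, and IL6Myc-1 lay 0.31 above the other 3 lines. Chromosome 18 had a median of 0.31 and chromosome 14 of -0.28. Over the 9 library pairs the median ranged from -0.41 to -0.34 on chromosome 17 and from 0.34 to 0.37 on chromosome 2, and it was 0.01 for all genes. Copy number was not measured.

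**Figure D5:**
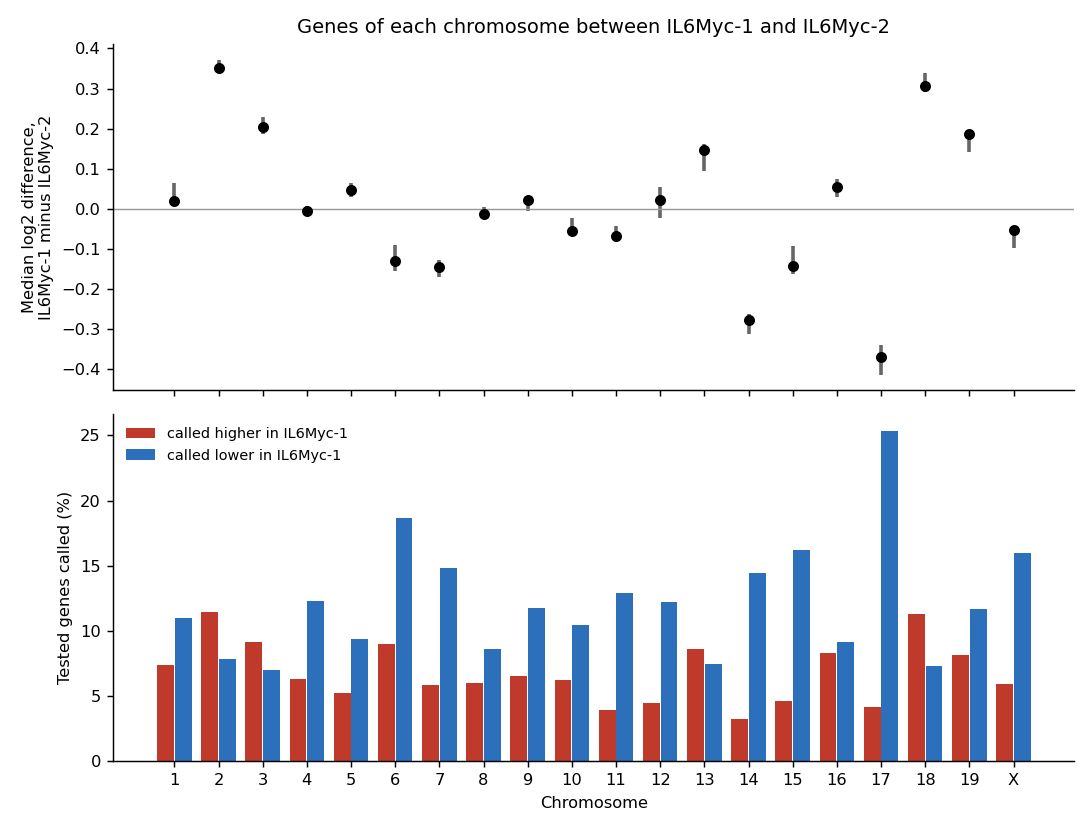
Upper panel, median log2 difference (IL6Myc-1 minus IL6Myc-2) of the tested genes of each chromosome, as points, with bars for the range over the 9 library pairs. Lower panel, percent of tested genes called higher (red) and lower (blue) in IL6Myc-1; chromosome 17 has the lowest median, -0.37, and chromosome 2 the highest, 0.35.

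Transcripts of the Y chromosome separated the lines. Eif2s3y and Ddx3y were listed at 0 in IL6Myc-1, and at 84.4 ± 4.45 CPM and 47.6 ± 0.982 CPM in IL6Myc-2. They were also listed at 0 in IL6Myc-5. Kdm5d and Uty were at 1.40 ± 0.423 CPM in IL6Myc-1, against 23.1 ± 1.63 CPM in IL6Myc-2 and at 3.26 ± 0.298 CPM in IL6Myc-1, against 14.2 ± 0.960 CPM in IL6Myc-2. Xist, the RNA that silences an X chromosome, was at 1.36, 1.95 and 1.44 CPM in the IL6Myc-1 libraries, against 1.15, 0.915 and 7.67 CPM in the IL6Myc-2 libraries, where replicate 3 stood apart and the lines overlapped.

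Markers of other cells were mostly near 0. Of 15 T and NK cell markers, 12 were under 1 CPM in IL6Myc-1 and 11 in IL6Myc-2, and their summed level was 132 to 137 CPM in IL6Myc-1 and 232 to 243 CPM in IL6Myc-2. Most of it was Cd28, at 118 ± 3.49 CPM in IL6Myc-1, against 217 ± 5.75 CPM in IL6Myc-2, a receptor that plasma cells also carry. Of 16 myeloid markers, 9 were under 1 CPM in IL6Myc-1 and 10 in IL6Myc-2, with sums of 199 to 209 CPM in IL6Myc-1 and 324 to 341 CPM in IL6Myc-2, mainly Cd68 and C1qb. Erythroid and megakaryocyte markers summed to 1.83 to 2.43 CPM in IL6Myc-1 and 3.99 to 5.54 CPM in IL6Myc-2, with 10 of 11 under 1 CPM in each line. Stromal and endothelial markers summed to 28.9 to 30.4 CPM in IL6Myc-1 and 23.1 to 25.7 CPM in IL6Myc-2, with 13 of 15 under 1 CPM in each line. Fcgr4 and C1qc, of the myeloid list, and Cd3d, of the T cell list, were called lower, at 2.71 ± 0.307 CPM in IL6Myc-1, against 27.6 ± 0.764 CPM in IL6Myc-2, at 6.84 ± 0.535 CPM in IL6Myc-1, against 20.4 ± 1.26 CPM in IL6Myc-2 and at 0.793 ± 0.114 CPM in IL6Myc-1, against 7.61 ± 1.02 CPM in IL6Myc-2. Calls also went the other way, with Prf1 of the T and NK list at 1.16 ± 0.238 CPM in IL6Myc-1, against 0.0692 ± 0.0234 CPM in IL6Myc-2, Mpo of the myeloid list at 1.37 ± 0.435 CPM in IL6Myc-1, against 0.307 ± 0.107 CPM in IL6Myc-2, and Lepr of the stromal list at 2.39 ± 0.357 CPM in IL6Myc-1, against 1.16 ± 0.271 CPM in IL6Myc-2. Lepr lost its call without IL6Myc-1 replicate 1, IL6Myc-2 replicate 1 or IL6Myc-2 replicate 2. Cd4 of the T and NK list and Itga2b of the megakaryocyte list were called lower too. The defining genes Lyz2, Csf1r, Cd3e, Gzmb and Hba-a1 had at most 4 counts over a line. In bulk RNA, fewer cells with a transcript and less of it per cell cannot be told apart.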

How the data were processed

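RNA (RNeasy mini kit) went into TruSeq Stranded Total RNA libraries, per the labels' protocols. The submitters' processing notes name GRCm39, Trim Galore 0.4.0 and, with no version, DESeq2. How reads were aligned, counted and assigned by strand, and to which annotation, is not given in the sources used here. As deposited, the table is named for TPM, but its columns sum to different totals and its low values cluster near 1 (30.8% to 54.3% of values under 1.5 lie within 0.02 of 1), so the deposited values were taken as estimated counts. A further deposited column, the mean of the libraries, was not used. Any length correction by the quantifier would carry into the levels.

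Values were rounded to whole numbers. The 32434 entries were matched by name to a GRCm38.p6 gene table (99.2% matched), which gave chromosomes. A few immunoglobulin, T cell receptor, haemoglobin and mitochondrial ribosomal entries were not analysed here. Testing covered the 11773 genes that reached 1 CPM in 3 or more of the 15 libraries. Counts were fitted in edgeR 4.0.16 (R 4.3.3) to all 15 libraries with the line as factor and TMM scaling, and CPM are on those sizes. A call needed a Benjamini-Hochberg adjusted p under 0.05 over all genes and a log2 difference of 1 or more in size. A line with 0 counts was given a floor of 3 counts, 0.0332 CPM in IL6Myc-1, against 0.0527 CPM in IL6Myc-2, and folds against it are lower bounds for counting error only.

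The pair, its gene lists and the rule for named genes were chosen with earlier results of these data known, so no p-value is given for the pair and lists are described by counts and medians. The rule took the 15 largest ratios and the 10 highest levels among calls in each direction with at least 5 CPM and no overlap, up to 6 called members of each list, and all NF-kB, MHC and immunoglobulin members. Genes below 5 CPM or outside the rule were named after their values were seen. A few called genes that the rule takes are not reported here. Libraries of a line differed by more than counting noise (chi-square per degree of freedom 4.58 to 15.7), and none were identical. In simulated counts over 11773 genes with 100 changed 2-fold and 100 changed 4-fold, 92 and 99 were significant with the right sign and 49 and 99 were called. The median biological coefficient of variation was 0.0639. Promoter windows came from RefSeq (GRCm38.p6). Alternatives were DESeq2 1.42.0, limma 3.58.1 on log2(CPM + 1) and log2(CPM + 5), other filters and scalings, the pair fitted alone, a replicate block and leaving out each library.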

Additional observations from a re-analysis of the deposited data

How the results depend on the processing

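No named call reversed its direction under any alternative run. Genes without a call and with small negative differences, such as Myc, Nfkb1, Ikbkb, Ikbkg, Nlrc5 and Tnfrsf13b, turned positive on total counts without TMM, and Tnfrsf13b also with no filter. Counts over all genes were within 1.5 times the reported ones except under these settings. Requiring 5 CPM in 3 libraries left 1411 calls (464 higher and 947 lower in IL6Myc-1) and 1226 among IL6Myc-3, IL6Myc-4 and IL6Myc-5, with fewer genes tested. Limma on log2(CPM + 5) left 817 (202 higher, 615 lower), and on log2(CPM + 1) 515 higher. Total counts without TMM, chosen after the data were seen, gave 1420 higher, and 20 of 133 named calls were lost. The distance of the pair was 66.4 on log2(CPM + 5). With a margin of 0.5 log2 unit, IL6Myc-1 stood above the other lines for 229 genes and below for 470, IL6Myc-2 below for 224, both outside for 271 and neither for 582. With DESeq2 size factors the median log2 difference was 0.34 for chromosome 2, 0.19 for 3, -0.0195 for 4, 0.0324 for 5, -0.16 for 7, -0.0278 for 8, 0.00786 for 9, -0.082 for 11 and 0.0387 for 16. The cause of these shifts was not tested. Counts within single lists are small and moved by over 1.5 times in 101 of 1310 recounts. Without any 1 IL6Myc-1 library the higher chemokine genes were 0 (1 reported) and the higher bone disease genes 1 (2 reported), and without 1 IL6Myc-2 library the lower mitochondrial carriers were 1 (2 reported). The lower oxygen sensing genes were 1 (2 reported) without IL6Myc-2 replicate 1 or 2. Such losses include genes that the filter on low values removed once a library was left out. Ccl3 passed it only through IL6Myc-1, and Slc25a13 and Egln1 only through IL6Myc-2, so these recounts could not test them. Of the 133 named calls, 130 were tested without any 1 IL6Myc-1 library and 124 without any 1 IL6Myc-2 library. The lower MYC network genes were 2 (1 reported) with DESeq2, its size factors or the pair alone, and without IL6Myc-1 replicate 3, IL6Myc-2 replicate 2 or IL6Myc-2 replicate 3. With no filter 9 chemokine genes were lower (3 reported). Leaving out 1 library gave 2114 to 2212 calls, 729 to 795 higher and 1325 to 1462 lower, a distance of 97.4 to 97.96, and an immunoglobulin share of 4.96% to 5.16% in IL6Myc-1 and 11.4% to 11.5% in IL6Myc-2. Same-numbered replicates did not deviate together (r = -0.084, -0.0098 and -0.024), so the numbers do not pair the libraries. With a replicate block 793 genes were higher and 1448 lower, and 2228 of the 2238 calls were kept.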
